A study of Rattus norvegicus with 12 samples.

Results

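Estrogen receptor and coregulator genes were followed in the corpus luteum (CL) of pregnant rats in which luteal estradiol-17β (E2) synthesis was inhibited and E2 was given back. The members were Esr1, Esr2, Pgr, Ncoa1, Ncoa2, Ncoa3, Ncor1, Pelp1 and Nrip1, chosen by name, and every probe set that the platform annotation assigns to 1 of these symbols was kept. This gave 9 probe sets for 8 of the 9 genes, out of 15313 probe sets with 1 gene symbol (14509 genes) and 29214 probe sets in all. Esr1 had 2 probe sets (10702689, called probe set 1, and 10702695, called probe set 2), each other measured gene had 1, and Nrip1 had none under its symbol, so that its expression was not analysed here.

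Luteal RNA came from 12 Wistar rats. The platform was the Rat Gene 1.0 ST array of Affymetrix, which carries several oligonucleotide probes for each transcript and reads their brightness. There were 4 groups of 3 arrays, with RNA of 1 animal on each array. The AI+E2 rats received anastrozole (AI), a non-steroidal aromatase inhibitor, orally at 1 mg/kg with 10 µg E2 subcutaneously each day for 4 days beginning on day 12 of pregnancy, and their CL were taken on day 16. The AI rats received AI alone over the same days, and the vehicle (VEH) rats received vehicle; both were taken on day 16. The Day 12 rats were untreated and were taken on day 12. AI was given to the whole animal, so that the inhibition was not limited to the CL, and the VEH and Day 12 groups differ both in day and in dosing, which cannot be told apart. The values are log2 intensities normalized by the robust multi-array average (RMA), so that 1 unit is a doubling. Values of different probe sets are on different brightness scales, so that changes were taken within a probe set. Levels across probe sets served as a rough guide, to call a probe set dim or bright and to choose 1 per gene in the lists.

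Esr1 and Esr2 encode estrogen receptors α and β, transcription factors that bind E2 and then bind DNA at estrogen response elements or act through other bound factors. The bound receptor recruits coactivators of the p160 family (Ncoa1, Ncoa2 and Ncoa3) that bring in histone acetyltransferases, while Ncor1 and Nrip1 bring in deacetylase complexes and lower transcription. Pelp1 is a scaffold coregulator of the same receptors, and Pgr encodes the nuclear progesterone receptor, a classical target of E2 in the uterus. The rat CL makes both E2 and progesterone during the second part of pregnancy and responds to E2 as a luteotrophic hormone.

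The sequences before the annotated start of the receptor genes are given first, since these are the 3 members that bind a steroid themselves. RefSeq promoters (GRCr8, 250 bases before to 50 bases after 1 annotated start per gene) were matched by symbol for 7 of the 9 members. Each line below holds the 250 bases before the start, 5′ to 3′ on the strand of the gene, and capitals mark the motifs searched for. Esr1 lies on chromosome 1 (43511685 to 43904454, plus strand, window chr1:43641845-43642094). Esr2 lies on chromosome 6 (100589553 to 100645240, minus strand, window chr6:100644710-100644959). Pgr lies on chromosome 8 (14354398 to 14413271, plus strand, window chr8:14354148-14354397). The Esr1 and Esr2 windows fall inside the annotated gene intervals, so that other starts of these genes are not covered.
Esr1: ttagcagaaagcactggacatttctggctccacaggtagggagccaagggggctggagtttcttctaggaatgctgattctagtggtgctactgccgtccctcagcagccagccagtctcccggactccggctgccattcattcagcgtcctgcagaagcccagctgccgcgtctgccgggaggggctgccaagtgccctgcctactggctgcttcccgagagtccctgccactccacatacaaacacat
Esr2: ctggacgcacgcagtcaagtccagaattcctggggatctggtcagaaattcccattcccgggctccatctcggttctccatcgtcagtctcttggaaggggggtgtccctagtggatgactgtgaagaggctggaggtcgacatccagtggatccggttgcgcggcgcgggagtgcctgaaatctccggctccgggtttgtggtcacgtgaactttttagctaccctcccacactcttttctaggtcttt
Pgr: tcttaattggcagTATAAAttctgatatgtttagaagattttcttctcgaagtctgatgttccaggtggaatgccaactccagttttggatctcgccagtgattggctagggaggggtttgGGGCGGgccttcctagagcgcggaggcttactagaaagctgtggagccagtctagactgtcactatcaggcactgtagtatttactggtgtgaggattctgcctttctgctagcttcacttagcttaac
The motifs searched on both strands of the full windows were the palindromic estrogen response element GGTCANNNTGACC, the extended arm AGGTCA, the GC box GGGCGG and the TATA box TATAAA. The extended arm is the arm of the palindrome (GGTCA) with an A before it, and GGTCA without that A was not counted. The palindrome was found in 9 of 33469 promoters (0.0269%), the extended arm in 16.2%, the GC box in 33.1% and the TATA box in 14.2%. The palindrome and the extended arm AGGTCA were found in 0 of the 7 members with a window. Pgr had 1 match of the GC box and 1 of the TATA box, which begin at -129 and -237 from the annotated start. Esr1 and Esr2 had none of the 4 motifs. GC boxes were also found in the windows of the coregulators, with 7 in Ncoa1, 3 each in Ncor1 and Nrip1 and 2 in Pelp1. A match is a stretch of letters and was not tested as a binding site.

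Of the receptors, Esr1 was higher after E2 replacement. Esr1 probe set 1 read 8.91 on each of the 3 AI+E2 arrays, against 8.47, 8.57 and 8.39 in AI, 8.36, 8.29 and 8.44 in VEH and 8.50, 8.69 and 8.64 on Day 12. All AI+E2 arrays lay above every array of the other groups, whereas AI overlapped both VEH and Day 12. It rose by a log2 fold change of 0.44 in AI+E2 against AI (1.35-fold, SE 0.067, adjusted p = 0.000393, limma). Against VEH the rise was 0.55 (1.46-fold, SE 0.067, adjusted p = 5.19e-05). Both calls held in all 10 alternative settings and in all 12 fits without 1 array, with the highest adjusted p at 0.0362 and 0.0215. Among these settings was a limma fit of the mean of the 2 Esr1 probe sets, not of probe set 1 alone. It gave 0.355 against AI and 0.386 against VEH (adjusted p = 0.0073 and 0.00404). The SD of probe set 1 was 0.0021 within AI+E2, below the 0.076 to 0.099 of the other groups, and limma shares the spread over groups and probe sets. In bulk tissue, a change in the share of cells that hold a transcript cannot be told apart from a change in each cell.

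In AI against VEH, Esr1 probe set 1 differed by 0.11 (95% interval -0.03 to 0.26, adjusted p = 0.311), so that no effect of AI alone passed the test. In VEH against Day 12 it fell by 0.24 on the log2 scale (0.844-fold, adjusted p = 0.0312), and the 3 VEH arrays lay below the 3 Day 12 arrays. That call was lost without Day 12 replicate 2 or 3, VEH replicate 1 or 2, or AI+E2 replicate 1, with log2 fold changes of -0.24 to -0.20 and adjusted p of 0.0501 to 0.118.

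Esr1 probe set 2 gave the fall between the days but not a call with E2. It read 9.36, 9.27 and 9.54 in AI+E2, 9.20, 9.15 and 9.0 in AI, 9.22, 8.97 and 9.31 in VEH and 9.39, 9.72 and 9.52 on Day 12. Its AI+E2 arrays lay above the AI arrays but overlapped those of VEH and Day 12. The log2 fold change was 0.28 in AI+E2 against AI (95% interval 0.06 to 0.49, adjusted p = 0.0965, or 0.0437 in a fit of these 2 groups only) and 0.22 in AI+E2 against VEH (95% interval 0.01 to 0.44, adjusted p = 0.188). AI against VEH gave -0.05 (adjusted p = 0.796). In VEH against Day 12 it fell by 0.38 (0.771-fold, adjusted p = 0.0285), a call lost without Day 12 replicate 2 or 3 or VEH replicate 1 or 2 (log2 fold changes -0.40 to -0.28, adjusted p 0.0543 to 0.123).

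The order of the 4 groups therefore differed between the Esr1 probe sets. For probe set 1 the means ran from AI+E2 (8.91) through Day 12 (8.61) and AI (8.48) to VEH (8.37), and only AI+E2 stood clear of its neighbour. For probe set 2 the order was Day 12 (9.54), AI+E2 (9.39), VEH (9.17) and AI (9.11), with overlapping arrays between each pair of neighbours. Over the 12 arrays the probe sets correlated with a Pearson r of 0.60 and a Spearman rho of 0.66, as a description over arrays of 4 groups. The difference of probe set 1 minus probe set 2 was -0.48 ± 0.14 in AI+E2, -0.64 ± 0.07 in AI, -0.80 ± 0.10 in VEH and -0.93 ± 0.08 on Day 12 (SD, n = 3 each), with no overlap between the AI+E2 and VEH arrays. The sources used here do not give which part of the Esr1 transcript each covers.

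Esr2 did not pass the test in any comparison. It read 7.53, 7.39 and 7.63 in AI+E2, 7.41, 7.34 and 7.55 in AI, 7.82, 7.50 and 7.30 in VEH and 7.48, 7.02 and 7.58 on Day 12. All 4 groups overlapped, and the SD was 0.12 in AI+E2, 0.11 in AI, 0.26 in VEH and 0.30 on Day 12. The log2 fold change was 0.09 in AI+E2 against AI (95% interval -0.21 to 0.38), -0.03 in AI+E2 against VEH (-0.32 to 0.27), -0.11 in AI against VEH (-0.41 to 0.18) and 0.18 in VEH against Day 12 (-0.11 to 0.48). Changes of Esr2 within these intervals could not be seen with this spread. The interval of Esr1 probe set 1 overlapped that of Esr2 in AI+E2 against AI (0.29 to 0.58) but not in AI+E2 against VEH (0.4 to 0.69). Those of Esr1 probe set 2 overlapped it in both, and a difference in response between the genes was not tested. The difference of Esr1 probe set 1 minus Esr2, whose size has no meaning of its own, lay between 1.28 and 1.52 in AI+E2 and between 0.54 and 1.14 in VEH, without overlap. It lay between 0.84 and 1.24 in AI, and between 1.02 and 1.67 on Day 12, which spans the AI+E2 range. For Esr1 probe set 2 minus Esr2, the AI+E2 range of 1.83 to 1.91 lay inside that of VEH, 1.4 to 2.0. The AI range was 1.45 to 1.81 and the Day 12 range 1.9 to 2.7, so that the separation from VEH was seen with probe set 1 only. An exact permutation test of 3 arrays against 3 cannot go below p = 0.1 (two-sided).

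**Figure D1:**
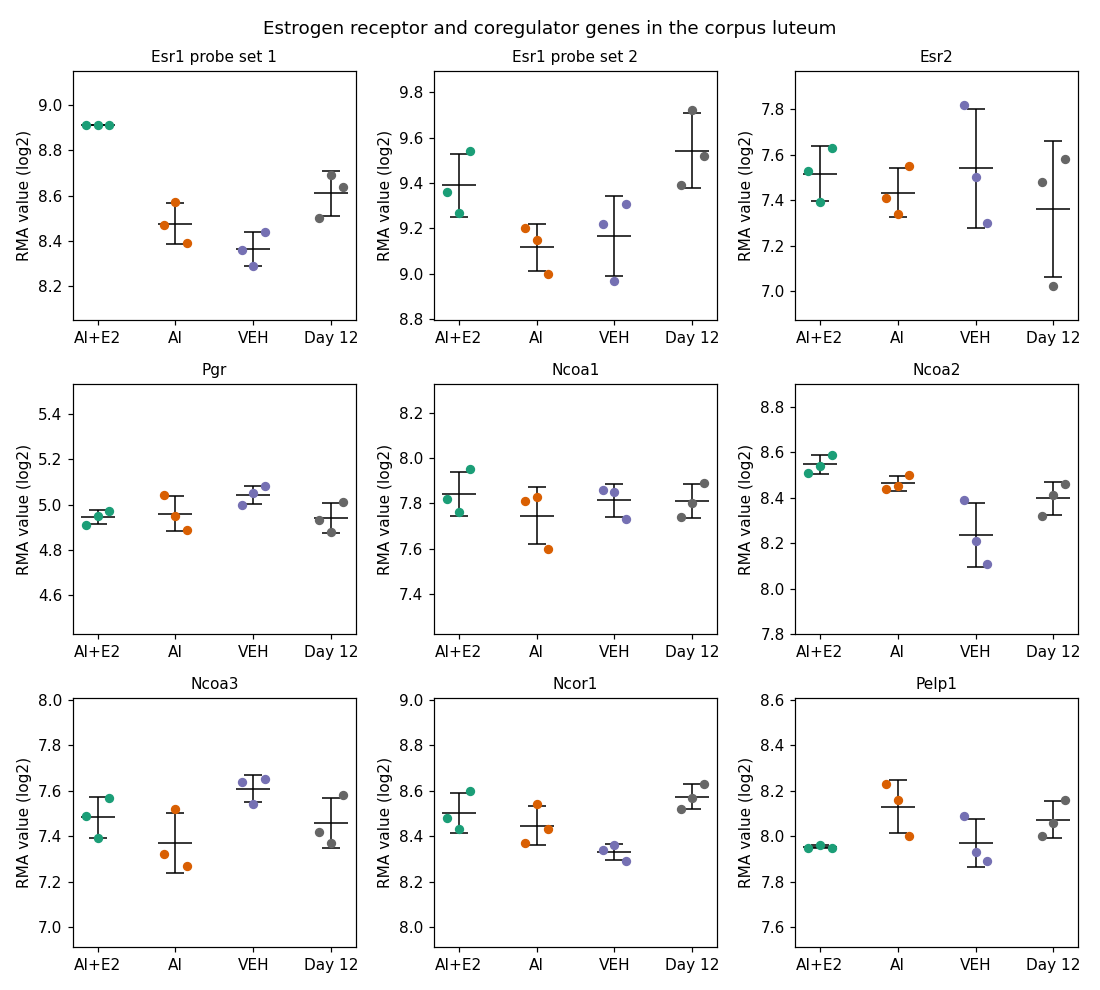
RMA values (log2) of the 9 member probe sets on the 12 arrays, by group. Points are arrays, the long bar is the group mean and the capped bars are 1 SD; every panel spans the same height. The 3 AI+E2 arrays of Esr1 probe set 1 sit at 8.91 above all others, while the Esr2 arrays of VEH and Day 12 spread over a range as wide as the differences between groups.

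The spread of Esr2 within groups ran with 3 genes expressed in granulosa cells, Inha, Inhba and Fshr, but not with the follicle marker list as a whole. Inha encodes the α subunit of inhibin, Inhba the βA subunit of activin and inhibin, and Fshr the receptor for follicle-stimulating hormone; they were chosen after their values were seen, and Inhba also stood in the luteal marker list. Inha read 9.89, 9.69 and 9.76 in AI+E2, 9.68, 9.62 and 10.62 in AI, 10.14, 9.43 and 8.65 in VEH and 10.13, 8.81 and 10.31 on Day 12. In 3 of the 4 groups the order of the 3 arrays by Inha was also their order by Esr2, AI+E2 being the exception. VEH replicate 1, the highest array for Esr2, read 10.14 for Inha, and Day 12 replicate 2, the lowest for Esr2, read 8.81.

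Over the 12 arrays the Pearson r of Esr2 was 0.72 with Inha, 0.60 with Fshr and 0.67 with Inhba, and Spearman's rho was 0.78, 0.85 and 0.50. These are descriptions over arrays of 4 groups, with no test, since the genes were picked for this pattern. Without the 2 arrays farthest from the median of Inha, r with Inha was 0.45. Taken as deviations from the group means, r was 0.94 with Inha, 0.83 with Fshr and 0.92 with Inhba. The other 5 measured genes of the follicle list did not run with Esr2. Its r was -0.71 with Zp3 and -0.64 with Gdf9, both genes of the oocyte, -0.56 with Kit, -0.32 with Bmp15 and -0.15 with Amh, a granulosa gene of small follicles. As deviations from the group means these were -0.85 with Zp3, -0.73 with Gdf9, -0.51 with Kit, -0.21 with Bmp15 and -0.52 with Amh. Esr2 thus ran with some follicle genes and against others, and the list as a whole gave no single direction. For Esr1, r with the 7 follicle genes lay between -0.18 and 0.72 for probe set 1 and between -0.28 and 0.66 for probe set 2. As deviations from the group means, these ranges were -0.67 to 0.45 and -0.72 to 0.62. With Inha, Fshr and Inhba the deviations gave -0.67, -0.59 and -0.68 for probe set 1 and -0.57, -0.39 and -0.59 for probe set 2. Within groups, Esr1 thus ran against the genes with which Esr2 ran.

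The mean RMA value of the follicle marker list (7 of 9 genes measured, among them Inha and Fshr) lay between 6.72 and 6.76 on the AI+E2 arrays, 6.67 and 6.92 in AI, 6.42 and 6.61 in VEH and 6.61 and 6.83 on Day 12. Of these 7 genes 3 fell in VEH against Day 12, 1 rose after AI and 1 after AI+E2, both set against VEH. The part of follicle cells in the Esr2 values was not tested.

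**Figure D2:**
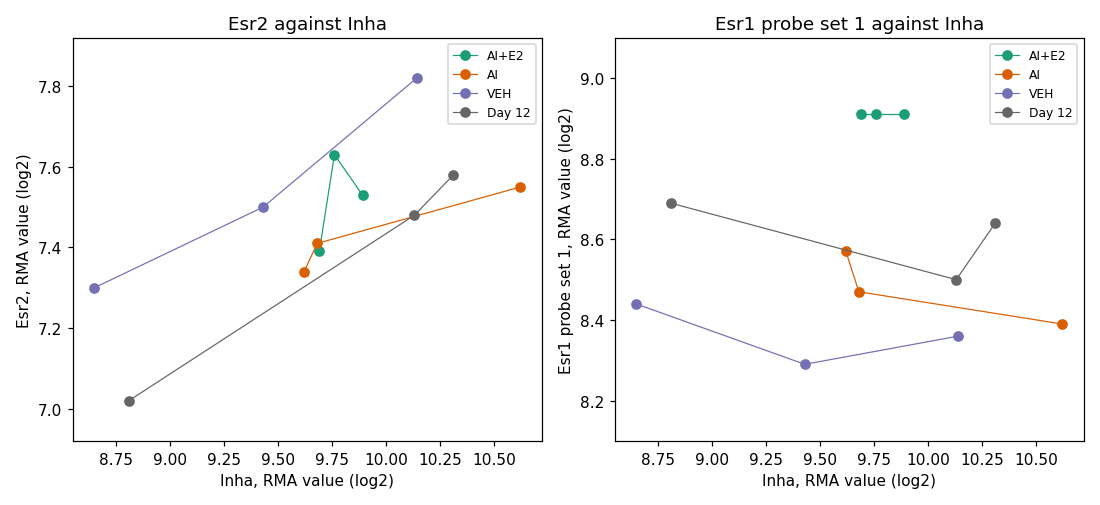
RMA value (log2) of Esr2 (left) and Esr1 probe set 1 (right) on the 12 arrays, plotted against that of Inha. Points are arrays, and lines join the arrays of a group in order of Inha. Esr2 climbs with Inha within AI, VEH and Day 12 (r = 0.72 over the 12 arrays), and the AI+E2 arrays, whose Inha values span only 9.69 to 9.89, stand at 8.91 for Esr1.

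Pgr was dim and did not pass the test in any comparison. Its mean was 4.94 ± 0.03 in AI+E2, 4.96 ± 0.07 in AI, 5.04 ± 0.04 in VEH and 4.94 ± 0.07 on Day 12 (SD, n = 3 each), and 7.46% of the named probe sets had a lower mean. The 3 AI+E2 arrays (4.91, 4.95 and 4.97) lay below the 3 VEH arrays (5.0, 5.05 and 5.08), a log2 fold change of -0.10 (95% interval -0.22 to 0.03, adjusted p = 0.362). A probe set this dim can hide a change, and whether an induction of Pgr by E2 was hidden or absent was not tested.

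Of the p160 coactivators, Ncoa2 was higher in both AI groups than in VEH. It read 8.51, 8.54 and 8.59 in AI+E2, 8.44, 8.45 and 8.50 in AI, 8.39, 8.21 and 8.11 in VEH and 8.32, 8.41 and 8.46 on Day 12. The VEH arrays lay below all arrays of both AI groups. In AI+E2 against VEH it rose by 0.31 (1.24-fold, SE 0.069, adjusted p = 0.00743), a call that held in all 12 fits without 1 array and was lost with the methods' t-test alone (adjusted p = 0.156). In AI against VEH it rose by 0.22 (1.17-fold, adjusted p = 0.0395). That second call was lost without VEH replicate 2 or 3, any single AI replicate, or AI+E2 replicate 1 or 2 (log2 fold changes 0.16 to 0.23, adjusted p 0.0506 to 0.161). It held in 5 of 11 alternative settings. These comparisons share the VEH arrays and are not independent. AI+E2 against AI gave 0.09 (adjusted p = 0.50), and VEH against Day 12 gave -0.16 (adjusted p = 0.184, or 0.0432 without VEH replicate 1, the highest VEH array, and 0.0499 with quantile normalization once more).

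Ncoa3, known as amplified in breast cancer 1, was lower after AI. It read 7.32, 7.52 and 7.27 in AI, against 7.64, 7.54 and 7.65 in VEH, and the groups did not overlap. In AI against VEH it fell by 0.24 on the log2 scale (0.847-fold, SE 0.077, adjusted p = 0.0454). The call was lost without any single VEH replicate, AI replicate 1 or 3, Day 12 replicate 1 or AI+E2 replicate 1 (log2 fold changes -0.27 to -0.19, adjusted p 0.0517 to 0.177). It held in 6 of 11 alternative settings. The AI+E2 arrays (7.49, 7.39 and 7.57) and the Day 12 arrays (7.42, 7.37 and 7.58) overlapped those of both groups, and the other comparisons of Ncoa3 did not pass (adjusted p 0.259 to 0.423). Ncoa1, the first of the family to be described, had means of 7.84 in AI+E2, 7.75 in AI, 7.81 in VEH and 7.81 on Day 12, and its adjusted p lay between 0.486 and 0.989.

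Of the corepressors, Ncor1 was lower in VEH than on Day 12. It read 8.34, 8.36 and 8.29 in VEH, against 8.52, 8.57 and 8.63 on Day 12, without overlap. It fell by 0.24 (0.846-fold, SE 0.064, adjusted p = 0.0255), a call lost without VEH replicate 1 or 3 or Day 12 replicate 2 or 3 (log2 fold changes -0.24 to -0.21, adjusted p 0.0529 to 0.0773). The AI+E2 arrays (8.48, 8.43 and 8.60) and the AI arrays (8.37, 8.54 and 8.43) all lay above the VEH arrays. The log2 fold change was 0.17 in AI+E2 against VEH (95% interval 0.03 to 0.31, adjusted p = 0.101) and 0.12 in AI against VEH (-0.02 to 0.25, adjusted p = 0.26). With quantile normalization once more, both passed, at adjusted p of 0.0284 and 0.0176.

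Pelp1, the scaffold coregulator, did not pass the test in any comparison. It read 7.95, 7.96 and 7.95 in AI+E2, 8.23, 8.16 and 8.0 in AI, 8.09, 7.93 and 7.89 in VEH and 8.0, 8.06 and 8.16 on Day 12. The AI+E2 arrays lay below the AI arrays, with a log2 fold change of -0.18 (95% interval -0.34 to -0.03, adjusted p = 0.122, or 0.0467 without AI replicate 3). AI against VEH gave 0.16 (95% interval 0.01 to 0.31, adjusted p = 0.165), with overlapping arrays. With the arrays quantile normalized once more, these became calls, at adjusted p of 0.0229 in AI+E2 against AI and 0.0259 in AI against VEH.

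**Figure D3:**
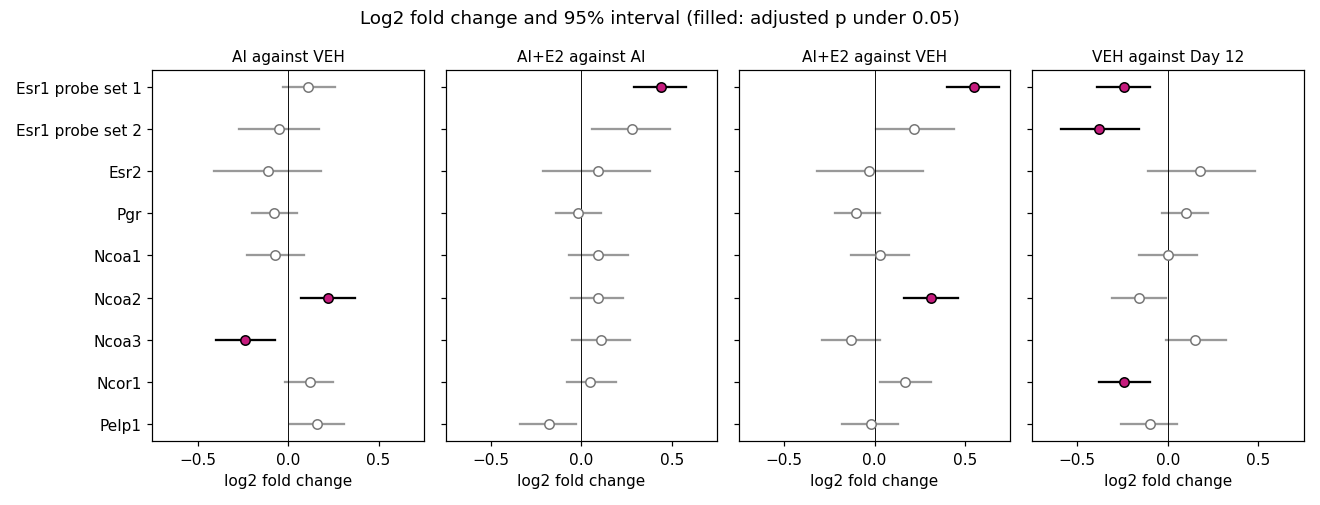
Log2 fold change of each member probe set (dots) with its 95% interval (lines) from the limma fit, for the 4 comparisons named above the panels. Filled dots passed an adjusted p of 0.05, which holds for 2, 1, 2 and 3 of the 9 probe sets from left to right. The largest change is that of Esr1 probe set 1 in AI+E2 against VEH, at 0.55.

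The members' counts of calls were read against the share of all named probe sets that passed. In AI against VEH, 2 of 9 passed (Ncoa2 rose and Ncoa3 fell), where 16.9% of all probe sets passed, 6.04% higher and 10.8% lower. In AI+E2 against AI, 1 of 9 passed (Esr1 probe set 1, higher), where 12.7% of all passed, 8.61% higher and 4.14% lower. In AI+E2 against VEH, 2 of 9 passed (Esr1 probe set 1 and Ncoa2, both higher), where 13.4% of all passed, 6.53% higher and 6.86% lower. With 9 probe sets, 1 more or fewer moves the members' share by at least as much as it differs from the background in these 3 comparisons. In VEH against Day 12, 3 of 9 passed (both Esr1 probe sets and Ncor1, all lower), where 10.0% of all passed, 6.87% higher and 3.14% lower. The 2 Esr1 probe sets are of 1 gene and are not independent.

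The number of member probe sets whose groups did not overlap was 3 of 9 in AI against VEH (31.5% of all probe sets), 4 of 9 in AI+E2 against AI (31.5%), 4 of 9 in AI+E2 against VEH (29.9%) and 3 of 9 in VEH against Day 12 (24.3%). The median log2 fold change of the members, beside that of all probe sets, was -0.05 beside 0.01 in AI against VEH. Between AI+E2 and AI it was 0.09 beside -0.02. It was 0.03 beside 0.00 in AI+E2 against VEH and -0.10 beside -0.02 in VEH against Day 12.

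Markers of the cell types in the CL moved in the same comparisons. The counts of these and the later lists stand beside the share of all probe sets that passed. That share was 16.9% in AI against VEH, 12.7% in AI+E2 against AI, 13.4% in AI+E2 against VEH and 10.0% in VEH against Day 12. Whether a list differed from it was not tested. Set against VEH, 8 of 10 endothelial genes fell after AI and 7 after AI+E2. In VEH against Day 12, 9 rose, and 0 passed between AI+E2 and AI. Their mean RMA value was 8.72 to 8.78 on the AI+E2 arrays, 8.60 to 8.82 in AI, 9.14 to 9.17 in VEH and 8.68 to 8.87 on Day 12, so that VEH stood apart. Of 10 macrophage genes, 4 rose after AI and 4 after AI+E2, both set against VEH, 1 rose and 1 fell between AI+E2 and AI, and 0 passed in VEH against Day 12 (mean 8.33 to 8.39 in AI+E2, 8.29 to 8.39 in AI, 8.08 to 8.12 in VEH and 8.06 to 8.10 on Day 12). Of 10 smooth muscle genes, 2 fell after AI and 2 after AI+E2, both set against VEH, 5 rose in VEH against Day 12, and 0 passed between AI+E2 and AI. Ncoa2, Ncoa3 and Esr1 probe set 1 had calls against VEH beside these shifts. Ncor1 and both Esr1 probe sets had calls in VEH against Day 12 beside them. The part of the shifts in these calls was not tested. Of 9 fibroblast genes, AI+E2 against AI had 1 higher and 0 lower, AI against VEH had 1 higher and 1 lower, AI+E2 against VEH had 3 higher and 3 lower, and VEH against Day 12 had 4 higher and 1 lower. The oviduct list had 0 of 6 genes past the test in any comparison.

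The luteal markers Star and Cyp11a1, which carry cholesterol into mitochondria and start steroid synthesis, were bright on all 12 arrays (12.58 to 12.89 and 12.59 to 13.01). Both rose by 0.21 in AI against VEH (adjusted p = 0.0108 and 0.029, limma). Other luteal genes were less steady, with Akr1c3 at 6.23 to 10.83 and Fdx1 at 10.01 to 11.39. In AI against VEH, Prlr fell by 0.31 and Cyp19a1 by 0.27. Of the 9 luteal genes measured, AI against VEH had 5 higher and 2 lower, AI+E2 against AI had 2 higher and 1 lower, AI+E2 against VEH had 4 higher and 1 lower, and VEH against Day 12 had 1 higher and 2 lower.

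Among further coactivators of nuclear receptors, most calls came between AI+E2 and AI. AI+E2 against AI had 4 of 17 higher and 1 lower, where 12.7% of all probe sets passed. Cited2, which binds the CBP and p300 acetyltransferases, averaged 9.99 in AI+E2 against 8.77 in AI (log2 fold change 1.22, SE 0.084, adjusted p = 1.4e-07). Trim24 and Ncoa4, both ligand-dependent partners of nuclear receptors, rose by 0.37 (adjusted p = 0.00179) and 0.32 (adjusted p = 0.00403). Against VEH only Cited2 passed (1.05, adjusted p = 7.72e-07). In AI against VEH only the acetyltransferase Kat5 passed (0.21, adjusted p = 0.0253), and in VEH against Day 12 Trim24 rose and Kat2b fell. The list's median was -0.03 in AI+E2 against AI beside -0.02 for all probe sets.

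Of 15 other corepressor genes, AI against VEH had 0 higher and 2 lower, AI+E2 against AI had 1 higher and 0 lower, AI+E2 against VEH had 1 higher and 1 lower, and VEH against Day 12 had 0. Tbl1xr1, which exchanges corepressors for coactivators, was lowest in AI, with means of 8.40 in AI+E2, 7.84 in AI and 8.21 in VEH (adjusted p = 0.00207 in AI+E2 against AI and 0.0258 in AI against VEH). These comparisons share the AI arrays, so that a low AI mean appears in both with opposite sign. Hdac1, a deacetylase of several corepressor complexes, fell by 0.82 in AI+E2 against VEH (adjusted p = 0.000429) and by 0.55 in AI against VEH (adjusted p = 0.00696), read from the brighter of its 2 probe sets.

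The chaperones that hold steroid receptors ready for ligand had the largest share of calls of the 5 lists in the comparisons of AI with VEH and of AI+E2 with AI. AI against VEH had 4 of 10 higher and 1 lower, and AI+E2 against AI had 1 higher and 6 lower, with list medians of 0.16 and -0.25 beside 0.01 and -0.02 for all probe sets. Ptges3, the p23 cochaperone of Hsp90, averaged 8.12 in AI+E2, 8.57 in AI and 8.08 in VEH (adjusted p = 0.000731 in AI+E2 against AI and 0.000234 in AI against VEH). Bag1, a cochaperone of Hsp70, ran the other way, with 8.92 in AI+E2, 8.41 in AI and 9.04 in VEH (adjusted p = 0.00169 and 0.000208). The mean of the list was 9.14 in AI+E2, 9.27 in AI and 9.09 in VEH. Since the 2 comparisons share the AI arrays, a shift of the AI mean appears in both with opposite sign. Hsp90aa1 fell by 0.44 in AI+E2 against AI (adjusted p = 0.00113). Fkbp5, a cochaperone that is induced by glucocorticoids and progestins, averaged 9.09 in AI+E2, 9.24 in AI, 8.25 in VEH and 8.80 on Day 12. It rose by 0.98 in AI against VEH (adjusted p = 6.27e-07) and by 0.84 in AI+E2 against VEH (adjusted p = 5.74e-06), and fell by 0.54 in VEH against Day 12 (adjusted p = 0.000535). The comparison of AI+E2 with VEH had 2 of the 10 higher and 2 lower, and VEH against Day 12 had 1 higher and 1 lower.

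Of 9 other steroid and estrogen-related receptors, 0 to 2 passed in either direction in each comparison. Nr3c1, the glucocorticoid receptor, fell by 0.50 in AI against VEH (adjusted p = 0.00188). Pgrmc1, a membrane-bound progesterone-binding component, fell by 0.28 in AI+E2 against AI (adjusted p = 0.00415), by 0.23 in AI+E2 against VEH (adjusted p = 0.0171) and by 0.26 in VEH against Day 12 (adjusted p = 0.0114), read from the brighter of its 2 probe sets. Nr5a2, a nuclear receptor of steroidogenic tissue, fell by 0.27 in VEH against Day 12 (adjusted p = 0.0102), the comparison in which both Esr1 probe sets fell.

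Genes known to be induced by E2 in uterus or breast cells did not move one way. Of 22 measured, AI against VEH had 4 higher and 5 lower, AI+E2 against AI had 2 higher and 3 lower, AI+E2 against VEH had 4 higher and 4 lower, and VEH against Day 12 had 5 higher and 1 lower. Rasd1, a Ras-related protein, averaged 9.76 in AI+E2, 8.71 in AI and 8.72 in VEH, a rise of 1.05 against AI (adjusted p = 3.93e-05) and of 1.03 against VEH (adjusted p = 5.1e-05). Vegfa, an endothelial growth factor, fell by 0.47 in AI against VEH (adjusted p = 7.98e-05), by 0.37 in AI+E2 against AI (adjusted p = 0.000987) and by 0.84 in AI+E2 against VEH (adjusted p = 4.81e-07). Rara, a retinoic acid receptor, was also lower in both groups given AI, by 0.70 in AI against VEH (adjusted p = 3.85e-06) and by 0.86 in AI+E2 against VEH (adjusted p = 9.29e-07). Tgfa, a ligand of the epidermal growth factor receptor, rose by 0.52 in AI against VEH (adjusted p = 0.000553).

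**Figure D4:**
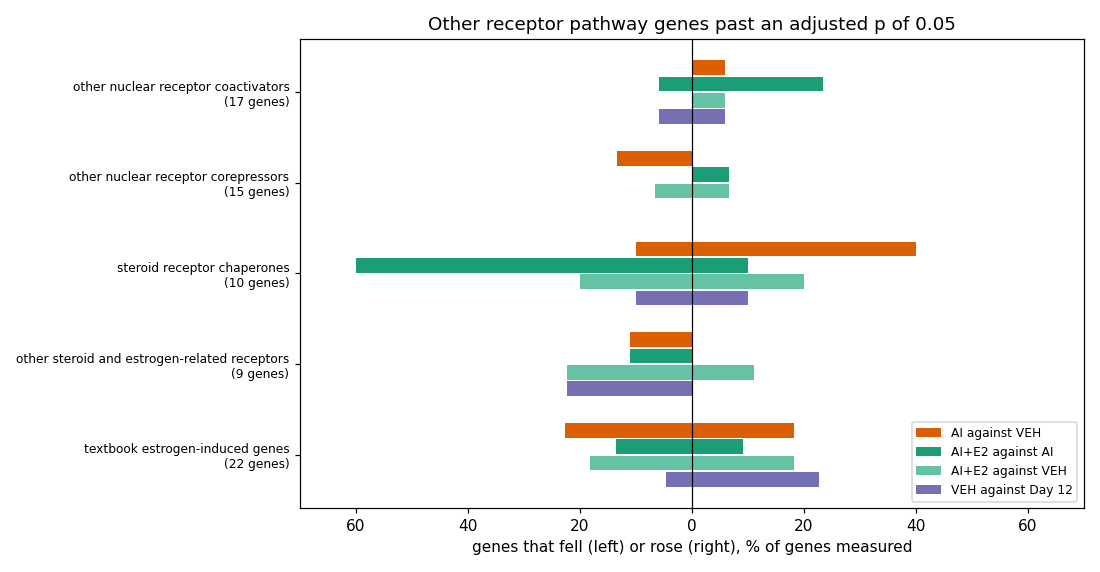
Share of the measured genes of 5 lists around the estrogen receptors (%) that passed an adjusted p of 0.05, higher to the right and lower to the left of 0. Bars are the 4 comparisons, and the number of genes measured stands beside each list. The longest bar is that of the chaperones in AI+E2 against AI, where 6 of 10 fell.

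The genes whose pattern over the 12 arrays was most like that of a member are given as a description, since arrays of a group share their treatment. Esr1 probe set 2 was closest to Nr5a2 (r = 0.87), Atad1 (0.87) and Taf7 (0.86). The closest to Esr2 were Mbd1 (r = 0.89), Abhd17b (0.87) and Heph (0.86), all above its r with Inha. Ncoa2 was closest to Psma4 (r = 0.94), a subunit of the proteasome, Rilp (0.93) and Got2 (0.93), a mitochondrial aminotransferase. The closest to Ncor1 were Acadm (r = 0.92), an enzyme of mitochondrial fatty acid oxidation, R3hdm1 (0.92) and Immt (0.91), a protein of the mitochondrial inner membrane. Psma4 averaged 9.03 in AI+E2, 8.84 in AI, 8.57 in VEH and 8.88 on Day 12, with VEH lowest as for Ncoa2. Acadm averaged 8.74 in AI+E2, 8.64 in AI, 8.39 in VEH and 8.88 on Day 12, the order of the Ncor1 means (8.50, 8.45, 8.33 and 8.57).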

How the data were processed

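Luteal RNA of 12 rats, 1 animal per array, was measured on the Rat Gene 1.0 ST array of Affymetrix. RMA normalization was done by the authors in R 2.12.2, who deposited log2 values of 29214 probe sets. RMA subtracts background, sets the distributions equal and can compress changes of dim probe sets. Array medians lay between 6.51 and 6.56, arrays correlated with r of 0.981 to 0.998, 0 of 66 pairs were identical and 0 values were missing. The sources used here do not give whether all arrays were normalized as 1 set. The number of arrays limits the precision.

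The platform annotation gave 1 gene symbol to 15310 probe sets, several to 323 and none to 13581, and 3 more were named from the study's supplementary lists. Those 15313 entered 1 limma fit (version 3.58.1, R 4.3.3; lmFit, eBayes, a mean for each of 4 groups, 8 residual and 6.59 prior degrees of freedom), with Benjamini-Hochberg adjustment over all of them and a threshold of 0.05. Lists take the probe set of a gene with the highest mean. The model was tested on simulated data. Rank correlations used scipy 1.17.1. Figures used matplotlib 3.10.9. Groups came from the labels. Alternatives were other sets of probe sets, filters on dim ones, 2 scalings, other error models, the methods' t-test, a replicate block and leaving out each array.

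All members were named whatever they did, from each list the 3 genes with the smallest adjusted p per comparison could be named, and likeness was ranked by Pearson r for Esr1, Esr2 and the 2 other members with the widest range of group means. One item of the corepressor list is not reported here. Inha, Inhba and Fshr were singled out after their values were seen. The members and lists were chosen with earlier results of these data known.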

Additional observations from a re-analysis of the deposited data

How the results depend on the processing

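The calls of Esr1 probe set 1 in AI+E2 against AI and against VEH held under every alternative that kept it. They also held for the mean of the 2 Esr1 probe sets. The calls in AI against VEH and VEH against Day 12 did not hold under every alternative. With 1 probe set per gene, which drops Esr1 probe set 1, 0 members passed in AI+E2 against AI and 1 in AI+E2 against VEH. Tested over all probe sets, 0 passed in AI against VEH and 1 in VEH against Day 12. Quantile normalization once more gave 4 calls in AI against VEH and, for AI+E2 against AI, 2. Centring on the median gave 1 in AI against VEH and 0 in VEH against Day 12. Fits of 2 groups only gave 0 in AI against VEH, 2 for AI+E2 against AI and 0 in VEH against Day 12. The intensity trend gave 0 in AI against VEH. The methods' t-test after adjustment gave 0 in AI against VEH, 1 for AI+E2 against VEH and 0 in VEH against Day 12. Leaving out 1 array gave 0 to 2 in AI against VEH, 1 to 2 for AI+E2 against AI and 0 to 3 in VEH against Day 12. The causes were not tested.

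The replicate numbers did not pair the arrays: deviations of same-numbered arrays correlated with r of -0.47 to 0.34 (median -0.08, 18 pairs). With the replicate block 0 members passed in AI against VEH, 1 in AI+E2 against AI, 2 in AI+E2 against VEH and 2 in VEH against Day 12.

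Only changes short of the threshold turned sign. Quantile normalization once more gave 0.037 for Esr1 probe set 2 in AI against VEH, -0.010 for Ncor1 and 0.005 for Pgr in AI+E2 against AI and -0.045 for Ncoa1 in VEH against Day 12, and centring gave 0.014 for Pgr in AI+E2 against AI. Leaving out 1 array gave, in AI against VEH, -0.232 to 0.027 for Esr2, -0.147 to 0.019 for Esr1 probe set 2 and -0.107 to 0.008 for Ncoa1. In AI+E2 against VEH it gave -0.146 to 0.113 for Esr2, -0.063 to 0.035 for Pelp1 and -0.024 to 0.071 for Ncoa1. It gave -0.050 to 0.022 for Pgr in AI+E2 against AI and -0.033 to 0.043 for Ncoa1 in VEH against Day 12. Dim probe sets such as that of Pgr have little signal over background, which limits what can be seen.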
